A study of Homo sapiens with 12 samples.

Results

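MDA-MB-231, a cell line long established from a triple-negative breast tumour, was used to compare SIRT1 knockdown directly with IGF2BP2 knockdown. The comparison used 6 of the 12 RNA sequencing libraries of the series, 3 with a hairpin against SIRT1 (SIRT1 KD) and 3 with a hairpin against IGF2BP2 (IGF2BP2 KD), and every gene in the deposited table. The 3 libraries of cells with a sham hairpin (control) served to say which knockdown had moved a gene. The remaining 3 libraries, from cells given both hairpins (double KD), were used to choose sequence words and in an alternative fit. All groups were infected with lentivirus made in HEK-293T kidney cells in the presence of Polybrene and kept under puromycin, so virus and drug selection were shared by every library. Each knockdown rested on 1 targeting hairpin, so hairpin and target cannot be told apart, and the hairpins' sequences were not used here. Per the series' design there were 3 runs per condition. No label says that runs came from separate infections, and p-values therefore speak only of the spread among these runs, which may be technical.

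SIRT1 is an NAD-dependent deacetylase that removes acetyl groups from histones, transcription factors and other proteins, NF-kB and p53 among them. IGF2BP2 is a cytoplasmic RNA-binding protein that recognises many m6A-marked transcripts and protects or localises them. One protein therefore acts mainly on gene regulators and the other on transcripts. The transcript of ATP6V1A, a catalytic part of the v-ATPase that makes lysosomes acidic, was followed in every comparison.

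Depth was even, with 19522606 to 22509142 reads in genes across the 9 libraries, and mitochondrially encoded transcripts took 1.99% to 2.57% of them. The first principal component held 46.4% of the variance and separated SIRT1 KD libraries, at 35.7 to 38.5, from IGF2BP2 KD libraries, at -29.7 to -28.7, with control between them at -9.61 to -7.54. The second held 16.8% and set control, at 21.7 to 24.5, apart from both knockdowns, at -16.8 to -2.82. The line's mesenchymal marker vimentin (VIM) was abundant, at 26383 to 28125 normalised counts in SIRT1 KD, 17403 to 19576 in IGF2BP2 KD and 20052 to 21346 in control libraries. The estrogen receptor gene ESR1 was at most 7.66, and the progesterone receptor gene PGR was at 0 in all 6 knockdown libraries. Of the packaging-cell markers 3 of 11 were measurable and 1 was higher in SIRT1 KD, of luminal epithelial markers 7 of 12 with 3 higher and 4 lower, of fibroblast markers 4 of 10 with 1 higher and 3 lower, and of immune markers 2 of 10 with 0 higher and 1 lower. Summed levels of these lists were 86.3 to 96.3, 31464 to 34202, 496 to 581 and 82.1 to 93.3 in SIRT1 KD libraries, 64.3 to 77.6, 24872 to 26205, 679 to 720.3 and 178 to 183 in IGF2BP2 KD libraries, and 99.0 to 113, 29182 to 29740.4, 720.04 to 756 and 140.1 to 163 in control libraries. The kidney gene PAX2, the fibroblast gene DCN and the T cell gene CD3E were at 0 in every knockdown library. In control libraries they reached 0.958, 4.79 and 0.958. Other genes of such cells had reads in the knockdowns. The collagen gene COL1A1 was at 298 to 349 in SIRT1 KD, 252 to 276 in IGF2BP2 KD and 218 to 230 in control libraries. The fibroblast gene LUM reached 14.7 in SIRT1 KD, 30.3 in IGF2BP2 KD and 28.9 in control. The monocyte gene CD14 reached 10.9, 15.1 and 18.2 in the same groups. The part of these marker lists in the results was not tested, and in bulk libraries fewer cells of a type and less RNA per cell cannot be told apart.

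The targeted transcripts were checked first. SIRT1 (ENSG00000096717.12, chr10:67884669-67918390, plus strand) was at 547, 496 and 539 normalised counts in SIRT1 KD replicates 1 to 3, 763, 691 and 730.4 in IGF2BP2 KD and 799, 841 and 863 in control. In SIRT1 KD it was at 63.2% of the control mean (-0.66 on the log2 scale, limma adjusted p = 1.0e-10). It fell in SIRT1 KD relative to IGF2BP2 KD by 0.46 on the log2 scale (95% interval -0.59 to -0.34, limma adjusted p = 1.2e-07). The groups did not overlap, but SIRT1 was itself lower in IGF2BP2 KD than in control (-0.20, adjusted p = 0.0159), a call that did not hold when control replicate 2 was left out (0.0532), when control replicate 3 was left out (0.0891), with all 12 libraries in the fit (0.102), without a filter on low values (0.0698) or in the deposited ratios (0.0702). IGF2BP2 (ENSG00000073792.16, chr3:185643739-185825056, minus strand) was at 3791, 3759 and 3720.5 in SIRT1 KD, 709, 841 and 736 in IGF2BP2 KD and 3045, 3055 and 3127 in control, a difference of 2.30 between the knockdowns (SE 0.054, adjusted p = 3.6e-27). SIRT1 KD libraries lay above control as well as above IGF2BP2 KD (0.29 against control, adjusted p = 3.4e-05). ATP6V1A (ENSG00000114573.10, chr3:113747019-113812056, plus strand) was at 1058, 916 and 1111 in SIRT1 KD, 2624, 2314 and 2618 in IGF2BP2 KD and 2509, 2501 and 2594 in control. It fell by 1.29 in SIRT1 KD relative to IGF2BP2 KD (95% interval -1.42 to -1.17, adjusted p = 8.1e-18), with IGF2BP2 KD at the level of control (-0.01, interval -0.13 to 0.11).

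The 2 knockdowns gave widely different transcriptomes. Of 17343 genes tested, 8753 (50.5%) were called different at an adjusted p under 0.05, 4431 (25.5%) higher and 4322 (24.9%) lower in SIRT1 KD. By at least 2-fold 1003 genes (5.78%) differed, and among these falls outnumbered rises, with 651 genes lower (3.75%) and 352 higher (2.03%). In 9613 genes (55.4%) the libraries of SIRT1 KD and of IGF2BP2 KD did not overlap. Against the shared control libraries 7275 genes (41.9%) were called in SIRT1 KD and 5326 (30.7%) in IGF2BP2 KD. The targets were reduced to unlike degrees, SIRT1 less than IGF2BP2, and the part of this in the 2 counts was not tested.

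Levels below are normalised counts, and values in parentheses are log2 differences of SIRT1 KD minus IGF2BP2 KD unless said otherwise. Direct counts of list members below are to be set beside 25.5% higher and 24.9% lower over all genes. Lists and members were chosen with earlier results of these data known, so their counts are not independent of that choice. Control libraries showed which side had moved, with the reservation that all 3 comparisons draw on the same 9 libraries. Of the 8753 genes that differed, 3476 (39.7%) were called against control in SIRT1 KD only, 1787 (20.4%) in IGF2BP2 KD only, 1473 (16.8%) in both in opposite directions, 684 (7.81%) in both in the same direction and 1333 (15.2%) in neither. Of the 352 genes at least 2-fold higher in SIRT1 KD, 150 (42.6%) had been called higher in SIRT1 KD and lower in IGF2BP2 KD, 73 in SIRT1 KD only and 76 in IGF2BP2 KD only. Of the 651 genes at least 2-fold lower, 290 (44.5%) had been called in SIRT1 KD only, 227 (34.9%) in both in opposite directions and 43 (6.61%) in IGF2BP2 KD only. IGF2BP2 KD alone thus accounted for a smaller share of the large falls than of the large rises, and this difference in shares was not tested.

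Of the 15 largest rises, several were low in both IGF2BP2 KD and control and high in SIRT1 KD. BSN (ENSG00000164061.5, chr3:49554489-49671545, plus strand), a giant scaffold of the presynaptic active zone, was at 249, 298 and 267 in SIRT1 KD, 25.0, 37.2 and 17.3 in IGF2BP2 KD and 27.8, 19.6 and 20.3 in control. This is 10.4-fold on the log2(value + 1) scale (3.37, interval 2.96 to 3.78, adjusted p = 6.8e-15). IGF2BP2 KD overlapped control, and SIRT1 KD lay above both. SCG2, a granin of dense-core granules, was at 358, 317 and 366 in SIRT1 KD, 39.2, 40.2 and 39.3 in IGF2BP2 KD and 55.5, 50.4 and 51.1 in control (3.10, adjusted p = 2.7e-20). GOLGA7B, a partner of a palmitoylating enzyme, was at 555, 475 and 504 in SIRT1 KD, 41.9, 60.3 and 34.5 in IGF2BP2 KD and 55.5, 48.6 and 47.3 in control and had the largest log2 fold change of the named rises (3.49, adjusted p = 2.3e-19). For the membrane proteins TMEM198 and DISP2 too, IGF2BP2 KD overlapped control, with means of 251 in SIRT1 KD, 23.9 in IGF2BP2 KD and 23.8 in control for TMEM198 (3.36) and 678 in SIRT1 KD, 139 in IGF2BP2 KD and 113 in control for DISP2 (2.28). MARCHF4, a ubiquitin ligase of membranes, averaged 788 in SIRT1 KD, 219 in IGF2BP2 KD and 264 in control (1.86).

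Another group of rises combined a rise in SIRT1 KD with a fall in IGF2BP2 KD. CLDN1, a sealing protein of tight junctions, was at 243, 241 and 256 in SIRT1 KD, 25.0, 32.1 and 46.0 in IGF2BP2 KD and 123, 115 and 135 in control (2.85, interval 2.54 to 3.16, adjusted p = 1.2e-16). TNFSF15, a cytokine of the tumour necrosis factor family, was at 246, 232 and 200.03 in SIRT1 KD, 41.9, 32.1 and 42.2 in IGF2BP2 KD and 79.5, 55.1 and 102 in control (2.52). Control lay between the knockdowns for both genes, without overlap. LRATD2 averaged 2026 in SIRT1 KD, 358 in IGF2BP2 KD and 884 in control (2.50), and KISS1, the precursor of the metastasis suppressor peptide kisspeptin, 1053 in SIRT1 KD, 252 in IGF2BP2 KD and 694 in control (2.06). SERINC2, of the serine incorporator family, averaged 3589 in SIRT1 KD, 944 in IGF2BP2 KD and 2553 in control (1.93). SOD2, the mitochondrial superoxide dismutase and a classical NF-kB target, averaged 8732 in SIRT1 KD, 2423 in IGF2BP2 KD and 5756 in control (1.85). The microtubule-binding NAV3 (1.86) and the histone demethylase gene KDM7A (1.75) completed the 15 largest rises together with IGF2BP2 itself.

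The largest fall in SIRT1 KD was that of ATOH8 (ENSG00000168874.13, chr2:85751344-85788066, plus strand), a basic helix-loop-helix transcription factor that answers to BMP signals. It was at 48.7, 28.8 and 39.0 in SIRT1 KD, 414, 409 and 410.3 in IGF2BP2 KD and 79.5, 94.3 and 89.7 in control. Both sides moved, down in SIRT1 KD and further up in IGF2BP2 KD, and the direct difference was -3.40 (interval -3.69 to -3.12, adjusted p = 3.7e-20), or 10.6-fold lower. RPN2 (ENSG00000118705.17, chr20:37178410-37241623, plus strand), a subunit of the oligosaccharyltransferase that attaches glycans to proteins in the endoplasmic reticulum, was at 1235, 1139 and 1284 in SIRT1 KD, 7714, 7285 and 7599 in IGF2BP2 KD and 6449, 6422 and 6698 in control (-2.63, adjusted p = 7.0e-30). IGF2BP2 KD stood slightly above control (0.21, adjusted p = 0.00117).

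Several of the other falls encode proteins of the cell surface. SDC2, a heparan sulfate proteoglycan, was at 98.3, 73.4 and 123 in SIRT1 KD, 595, 532 and 556 in IGF2BP2 KD and 605, 597 and 591 in control (-2.53, adjusted p = 8.4e-11). TMEM123, a membrane mucin, was at 1949, 1842 and 2245 in SIRT1 KD, 10254, 8366 and 10307 in IGF2BP2 KD and 9466, 9554 and 10138 in control (-2.26). For both genes IGF2BP2 KD overlapped control, and SIRT1 KD lay below both. The prominin PROM2 averaged 73.3 in SIRT1 KD, 371 in IGF2BP2 KD and 221 in control (-2.32) and the tetraspanin TSPAN9 624 in SIRT1 KD, 2614 in IGF2BP2 KD and 2023 in control (-2.07). SLC40A1, the iron exporter ferroportin, averaged 93.6 in SIRT1 KD, 441 in IGF2BP2 KD and 208 in control (-2.23). COL5A1, a chain of fibrillar collagen, averaged 2855 in SIRT1 KD, 10587 in IGF2BP2 KD and 6051 in control (-1.89). Others were the PBX-interacting PBXIP1 (-2.33), the cyclic AMP phosphodiesterase PDE7B (-1.89), the phosphoinositide-binding adaptor PLEKHA2 (-1.86), the inhibitory SMAD gene SMAD6 (-1.77) and the ETS-family factor SPDEF (-1.77). AMMECR1 (-2.16) and the galectin LGALS12 (-2.07) complete the 15.

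**Figure D1:**
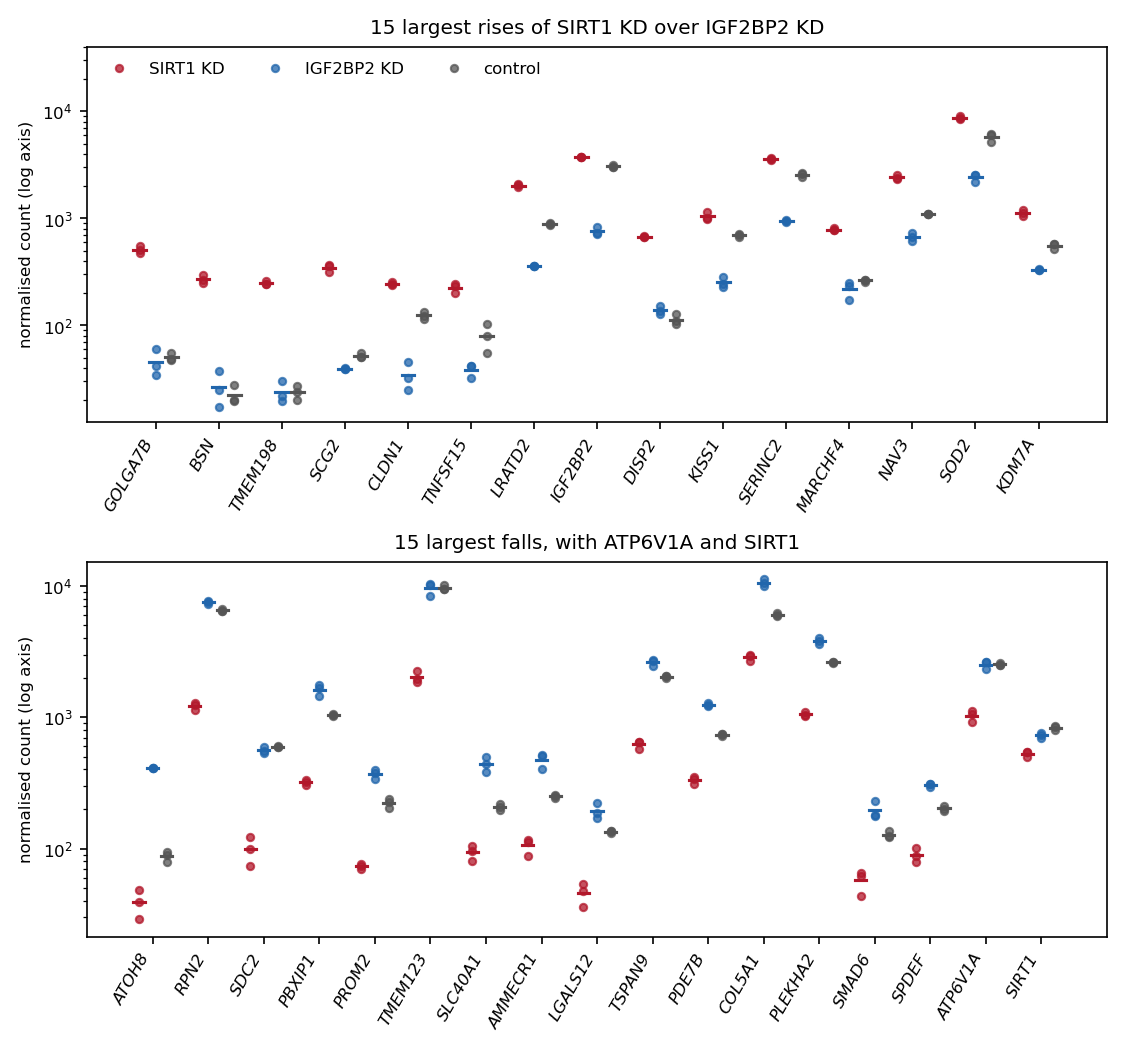
Normalised counts (log axis) in each library for the 15 largest rises (upper panel) and the 15 largest falls with ATP6V1A and SIRT1 (lower panel); points are single libraries of SIRT1 KD, IGF2BP2 KD and control, and short lines are group means. BSN and TMEM198 have IGF2BP2 KD and control together, whereas CLDN1 and ATOH8 have control between the knockdowns.

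Calls against control went in opposite directions in 1322 protein-coding genes at 5 CPM or more that also differed directly, 734 of them higher in SIRT1 KD and 588 lower. The 8 with the largest changes on both sides are given here, and their direction follows from how they were chosen. ATOH8, SLC40A1, AMMECR1 and COL5A1 fell in SIRT1 KD (-1.19, -1.15, -1.25 and -1.08 against control) and rose in IGF2BP2 KD (2.22, 1.08, 0.91 and 0.81). CLDN1, TNFSF15, LRATD2 and CCNA1 rose in SIRT1 KD (0.99, 1.55, 1.20 and 0.81) and fell in IGF2BP2 KD (-1.86, -0.97, -1.30 and -0.85). CCNA1, the germline cyclin A1, was at 812, 775 and 783 in SIRT1 KD, 256, 240.1 and 256 in IGF2BP2 KD and 477, 405 and 476 in control (1.65 directly, adjusted p = 1.5e-19).

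Another 1165 such genes moved the same way in both knockdowns with a direct difference whose 95% interval stayed within 0.5 on the log2 scale, 592 of them higher than control and 573 lower. MUC5AC, a gel-forming mucin, was at 489.5, 520.1 and 564 in SIRT1 KD, 568, 520.4 and 485 in IGF2BP2 KD and 204, 205 and 218 in control, with a direct difference of 0.00 (interval -0.16 to 0.16). The knockdowns overlapped each other and not control. ICMT, which methylates prenylated proteins, averaged 613 in SIRT1 KD, 663 in IGF2BP2 KD and 1535 in control (-0.11, interval -0.24 to 0.02, adjusted p = 0.153; 0.0212 without IGF2BP2 KD replicate 2). CYTH3, an exchange factor of ARF GTPases, averaged 1076 in SIRT1 KD, 1064 in IGF2BP2 KD and 2065 in control (0.02, interval -0.10 to 0.13). JDP2, a repressor of the AP-1 family, averaged 114 in SIRT1 KD, 132 in IGF2BP2 KD and 245 in control (-0.20, interval -0.42 to 0.02, adjusted p = 0.125; 0.0493 without IGF2BP2 KD replicate 3). Within the same limits 3 further genes still differed directly. LOX, the collagen cross-linking oxidase, was -0.20 in SIRT1 KD relative to IGF2BP2 KD (adjusted p = 0.00171), and ANKRD52, a regulatory subunit of a protein phosphatase, was 0.40 (adjusted p = 5.1e-09). The growth inhibitor BTG2 was 0.27 (adjusted p = 0.0292), a call lost in 6 alternatives, among them without SIRT1 KD replicate 2 or 3 or IGF2BP2 KD replicate 3 (adjusted p = 0.0503, 0.141 and 0.153).

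**Figure D2:**
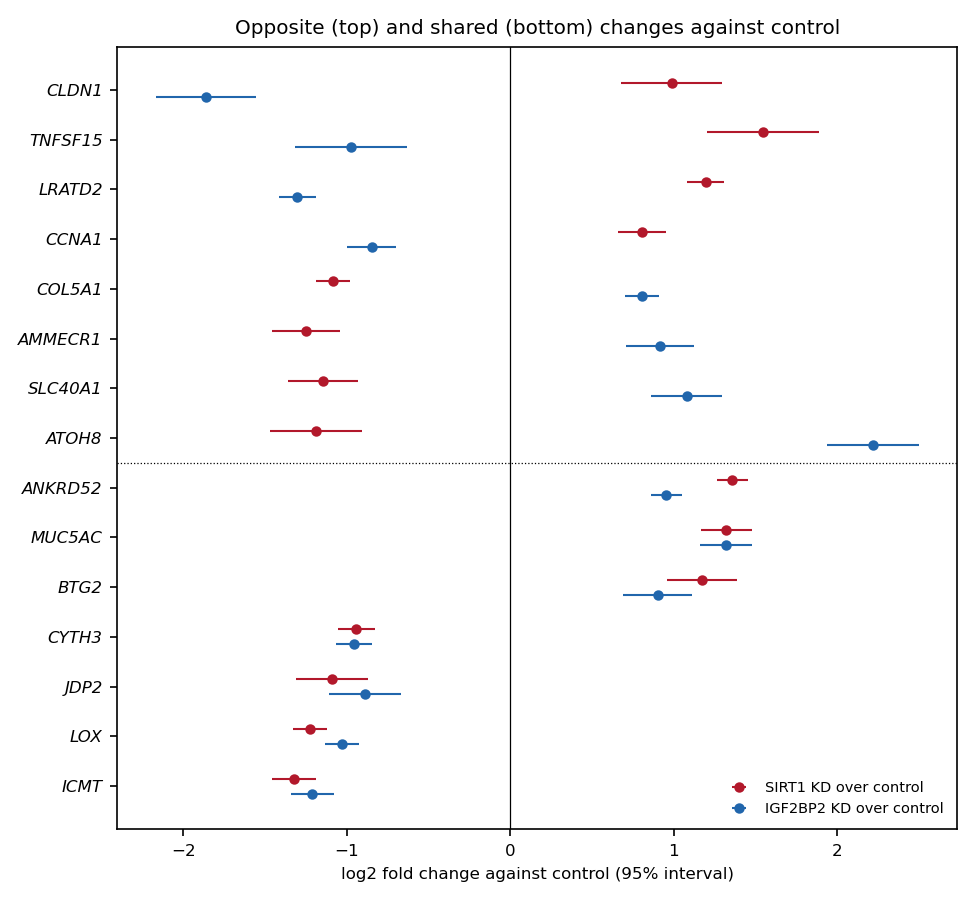
Log2 fold change against control with its 95% interval in SIRT1 KD and IGF2BP2 KD for 8 genes with opposite changes (above the dotted line) and 7 genes with shared changes (below it). The points of CLDN1 lie at 0.99 and -1.86, on either side of 0, and those of MUC5AC coincide at 1.32.

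Inflammatory cytokines and NF-kB targets were higher in SIRT1 KD than in IGF2BP2 KD. Of 23 measured, 18 were called higher and 2 lower, beside 25.5% and 24.9% of all genes, and their median log2 difference was 0.78, beside 0.00064 over all genes. Against control 7 rose and 6 fell in SIRT1 KD (median -0.04), beside 20.1% and 21.9% of all genes, and 1 rose and 17 fell in IGF2BP2 KD (median -0.60), beside 14.0% and 16.7%. CXCL8, the chemokine that draws neutrophils, was at 1757, 1508 and 1717 in SIRT1 KD, 589, 491 and 574 in IGF2BP2 KD and 1603, 1767 and 1815 in control (1.59, adjusted p = 4.7e-18), and SIRT1 KD overlapped control. The cytokine IL24 averaged 500.5 in SIRT1 KD, 172 in IGF2BP2 KD and 542 in control (1.53). BIRC3, an inhibitor of apoptosis induced by NF-kB, showed the other arrangement and averaged 3355 in SIRT1 KD, 1259 in IGF2BP2 KD and 1427 in control (1.41). NFKBIZ, a nuclear co-regulator of NF-kB, moved on both sides and averaged 1750.1 in SIRT1 KD, 789.8 in IGF2BP2 KD and 1194 in control (1.15).

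Immediate-early genes followed the same direction, with 18 of 28 higher and 3 lower (median 0.42). Against control 14 rose and 5 fell in SIRT1 KD, beside 20.1% and 21.9% of all genes. In IGF2BP2 KD 2 rose and 17 fell, beside 14.0% and 16.7%. DUSP5, a nuclear phosphatase of ERK, was at 5385, 5021 and 4879 in SIRT1 KD, 1764, 1869 and 1849 in IGF2BP2 KD and 3275, 3309.7 and 3168 in control (1.48, adjusted p = 6.4e-23). Its relative DUSP1 averaged 1243 in SIRT1 KD, 493 in IGF2BP2 KD and 818 in control (1.33), and FOSL1, a subunit of the AP-1 factor, 5973 in SIRT1 KD, 3221 in IGF2BP2 KD and 3951 in control (0.89). The transcription factor KLF6 averaged 13748 in SIRT1 KD, 6978 in IGF2BP2 KD and 8182 in control (0.98). In the list of EGF receptor ligands, receptors and sheddases 7 of 14 were higher and 4 lower (median 0.15). The ligands epiregulin (EREG) and amphiregulin (AREG) were higher. EREG averaged 1130.0 in SIRT1 KD, 356 in IGF2BP2 KD and 611 in control (1.66) and AREG 1583 in SIRT1 KD, 624 in IGF2BP2 KD and 2264 in control (1.34), and AREG was below control on both sides. TGFA, a further ligand, was higher (0.58), as was the receptor gene ERBB3 (0.66), and the sheddase ADAM17 was lower (-0.41).

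Oncofetal transcripts that the let-7 miRNAs repress were higher in SIRT1 KD in 9 of 12 cases and lower in 1 (median 0.66). IGF2BP2 is itself on this list. HMGA2, an architectural chromatin protein, was at 3525, 3792 and 3644 in SIRT1 KD, 1600.2, 1581 and 1591 in IGF2BP2 KD and 995, 957 and 995 in control (1.20, adjusted p = 2.2e-20). It rose on both sides, further in SIRT1 KD. Its relative HMGA1, among the most abundant transcripts named here, averaged 51664 in SIRT1 KD, 25256 in IGF2BP2 KD and 37578 in control (1.03). MYC averaged 9635 in SIRT1 KD, 5032 in IGF2BP2 KD and 5743 in control (0.94).

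Synaptic and neurosecretory genes were mostly higher in SIRT1 KD. Of 18 measured, 13 were higher and 2 lower (median 0.56), and against control 11 rose and 3 fell in SIRT1 KD (beside 20.1% and 21.9% of all genes), and 3 rose and 4 fell in IGF2BP2 KD (beside 14.0% and 16.7%). With a mean of at least 100 normalised counts required 7 were called higher. SYP, the vesicle protein synaptophysin, was at 169.8, 158 and 196 in SIRT1 KD, 25.9, 24.1 and 24.0 in IGF2BP2 KD and 23.0, 14.9 and 24.1 in control (2.77, adjusted p = 1.0e-14). PCLO, which works beside BSN at the active zone, averaged 488 in SIRT1 KD, 164 in IGF2BP2 KD and 108 in control (1.56), and the stathmin STMN3 2774 in SIRT1 KD, 1277 in IGF2BP2 KD and 1354 in control (1.12).

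Cytosolic ribosomal protein genes moved by small steps in 1 direction. Of 70 measured, 59 were higher in SIRT1 KD and 1 lower, with a median of 0.20, and 26 were called higher when all 12 libraries were fitted. Against control 41 rose and 0 fell in SIRT1 KD, beside 20.1% and 21.9% of all genes. In IGF2BP2 KD 2 rose and 13 fell, beside 14.0% and 16.7%. RPS7 was at 7932, 7129 and 7924 in SIRT1 KD, 5912, 5655 and 5932 in IGF2BP2 KD and 6385, 6634 and 6646 in control (0.39, adjusted p = 1.3e-08), and RPL9 averaged 7640.0 in SIRT1 KD, 5889.7 in IGF2BP2 KD and 6468 in control (0.38). These genes share near-identical pseudogenes, so how reads were divided between the copies bears on each value.

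Vesicle genes were also higher. In the list of ESCRT and exosome biogenesis 26 of 44 were higher and 9 lower (median 0.21). Against control 17 rose and 10 fell in SIRT1 KD, beside 20.1% and 21.9% of all genes. In IGF2BP2 KD 3 rose and 16 fell, beside 14.0% and 16.7%. SDCBP, the syntenin that links syndecans to exosome formation, was at 4975, 4626 and 4759 in SIRT1 KD, 2783, 2452 and 2689.8 in IGF2BP2 KD and 3481, 3517 and 3582 in control (0.86, adjusted p = 1.9e-16). The ESCRT-II subunit VPS36 (0.95), the ESCRT-III-disassembling ATPase VPS4B (0.65) and the recycling GTPase RAB11A (0.62) were higher, and the ESCRT-III subunit CHMP1A was lower (-0.62). In the list of tetraspanins and syndecans 9 of 24 were higher and 6 lower (median 0.02; 5 higher with all 12 libraries). Its largest differences were falls, in SDC2, TSPAN9, the glypican GPC6 (-1.07) and TSPAN15 (-0.81).

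Genes of DNA replication were lower in SIRT1 KD. Of 48 measured, 31 were lower and 5 higher, with a median of -0.32. Those higher numbered 2 without SIRT1 KD replicate 1 or 3 and 3 without IGF2BP2 KD replicate 2. Against control 35 fell and 2 rose in SIRT1 KD, beside 21.9% and 20.1% of all genes. In IGF2BP2 KD 9 fell and 2 rose, beside 16.7% and 14.0%. MCM3, a subunit of the replicative helicase, was at 2207, 2026 and 2293 in SIRT1 KD, 4199.5, 3615 and 3868 in IGF2BP2 KD and 3266, 3909 and 3536 in control (-0.84, adjusted p = 4.1e-12). IGF2BP2 KD overlapped control, and SIRT1 KD lay below both. Thymidine kinase (TK1) averaged 1592 in SIRT1 KD, 2570.2 in IGF2BP2 KD and 2359 in control (-0.69). Mitosis genes moved likewise, with 19 of 36 lower and 5 higher (median -0.20; 3 higher with all 12 libraries). The securin PTTG1 averaged 1112 in SIRT1 KD, 2095 in IGF2BP2 KD and 1956 in control (-0.91) and the proliferation marker MKI67 7172 in SIRT1 KD, 9832 in IGF2BP2 KD and 8596 in control (-0.46). CENPE, a kinetochore motor, went the other way and averaged 1644 in SIRT1 KD, 1079.7 in IGF2BP2 KD and 1687 in control (0.61).

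Interferon-stimulated genes were lower in 21 of 34 cases and higher in 2 (median -0.35). Those higher numbered 0 without SIRT1 KD replicate 3 or IGF2BP2 KD replicate 1, and 1 without SIRT1 KD replicate 1 or 2 or IGF2BP2 KD replicate 3. Against control 22 fell and 1 rose in SIRT1 KD, beside 21.9% and 20.1% of all genes. In IGF2BP2 KD 5 fell and 3 rose, beside 16.7% and 14.0%. IFIT1, which binds foreign RNA caps, was at 925, 876 and 980.1 in SIRT1 KD, 1388, 1344 and 1430.2 in IGF2BP2 KD and 1359.8, 1301 and 1341 in control (-0.58, adjusted p = 3.7e-11). IFI44 (-0.90), the oligoadenylate synthetase OAS2 (-0.73), its relative OASL (-0.63) and the virus-tethering BST2 (-0.51) were lower too. IGF2BP2 KD overlapped control for IFIT1, IFI44, OAS2 and BST2.

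TGF-beta and BMP signalling genes were lower in 17 of 26 cases and higher in 5 (median -0.34). Against control 15 fell and 3 rose in SIRT1 KD, beside 21.9% and 20.1% of all genes. In IGF2BP2 KD 8 fell and 11 rose, beside 16.7% and 14.0%. The ligand gene BMP4 was at 1738, 1602 and 1809 in SIRT1 KD, 3295, 3687 and 3436 in IGF2BP2 KD and 2665, 2669 and 2560.4 in control (-1.02, adjusted p = 7.5e-18). The BMP receptor gene BMPR2 averaged 3322 in SIRT1 KD, 6558 in IGF2BP2 KD and 4808 in control (-0.98), and TGFBR3, a co-receptor for both ligand classes, 628 in SIRT1 KD, 1276 in IGF2BP2 KD and 904 in control (-1.03). Control lay between the knockdowns for all 3. SMURF2, a ubiquitin ligase that removes receptors and SMADs, averaged 10116 in SIRT1 KD, 4439 in IGF2BP2 KD and 6464 in control (1.19). ATOH8 and SMAD6 stand on the same list, and both are known to respond to BMP signals.

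Genes of the secretory pathway differed in both directions. Of 12 oligosaccharyltransferase genes 6 were lower and 1 higher (median -0.12); 2 were higher without SIRT1 KD replicate 2 or IGF2BP2 KD replicate 3, and 3 were lower in the deposited ratios. RPN2 fell most, and MAGT1, a subunit that reduces and oxidises disulfides, averaged 1326 in SIRT1 KD, 2476 in IGF2BP2 KD and 2493 in control (-0.90). The paired subunit RPN1 was slightly higher (0.24, adjusted p = 5.6e-05). Chaperones of the endoplasmic reticulum and genes of the unfolded protein response were lower in 15 of 29 cases and higher in 9 (median -0.21). The disulfide isomerase PDIA4 was at 4443, 3723 and 4153 in SIRT1 KD, 7314, 7526 and 7314 in IGF2BP2 KD and 8985, 9217 and 9003 in control (-0.85, adjusted p = 3.8e-16). Both sides lay below control and SIRT1 KD lay lowest. The stress sensor ATF6 (-0.78), the degradation adaptor SEL1L (-0.83) and calreticulin (CALR, -0.61) were lower too. Targets of ATF4 and genes of amino acid supply ran the other way, with 15 of 29 higher and 6 lower (median 0.17). Both sides nevertheless lay below control as a rule. In SIRT1 KD 2 rose and 18 fell against control, beside 20.1% and 21.9% of all genes. In IGF2BP2 KD 1 rose and 22 fell, beside 14.0% and 16.7%. CEBPB, a transcription factor of that response, averaged 2629 in SIRT1 KD, 1490.4 in IGF2BP2 KD and 2792 in control (0.82), and the amino acid transporter SLC7A5 was lower (-0.45).

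Matrix and adhesion genes divided. Of 38 extracellular matrix and mesenchymal genes 16 were lower and 13 higher (median -0.11). THBS1, a matricellular protein, was at 13329.6, 11647 and 12863 in SIRT1 KD, 37100.1, 35168 and 36436 in IGF2BP2 KD and 36825, 36264 and 38672 in control (-1.52, adjusted p = 1.2e-23). TGFBI (-1.42) and COL12A1 (-0.77) were lower with it, and LAMB3, a laminin chain of epithelial basement membranes, was higher (0.86). Integrins were lower in 9 of 16 cases and higher in 2 (median -0.20; 1 higher without SIRT1 KD replicate 1 or IGF2BP2 KD replicate 1 or 3). ITGB3 averaged 136 in SIRT1 KD, 305 in IGF2BP2 KD and 318 in control (-1.16) and ITGA5 1696 in SIRT1 KD, 3004 in IGF2BP2 KD and 2896 in control (-0.82), whereas ITGB2 averaged 103 in SIRT1 KD, 184 in IGF2BP2 KD and 99.3 in control (-0.82) and had moved in IGF2BP2 KD. Secreted proteases and their inhibitors were higher in 7 of 14 cases and lower in 3 (median 0.12; 1 lower without SIRT1 KD replicate 1, 2 or 3 or IGF2BP2 KD replicate 3). TIMP3, an inhibitor of metalloproteinases, averaged 4781 in SIRT1 KD, 2488 in IGF2BP2 KD and 3866 in control (0.94). Tight junction and cell adhesion genes were higher in 9 of 28 cases and lower in 9 (median 0.06; 5 lower at a mean of at least 100). The desmosomal DSP (0.88) and CLDN12 (0.87) were higher and plakoglobin (JUP) was lower (-0.71).

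Of 3 metabolic lists, glycolysis and lipid synthesis leaned to lower values in SIRT1 KD and the respiratory chain did not. Of 36 glycolysis and hypoxia genes 20 were lower and 7 higher (median -0.15), and of 35 genes of cholesterol and fatty acid synthesis 19 were lower and 8 higher (median -0.14). The oxygen sensor EGLN3 was at 68.5, 81.7 and 64.2 in SIRT1 KD, 202, 216 and 220.5 in IGF2BP2 KD and 195, 142 and 145 in control (-1.57, adjusted p = 5.9e-13). IDI1, an isomerase of the sterol pathway, averaged 1008 in SIRT1 KD, 2449.7 in IGF2BP2 KD and 2455 in control (-1.28), and the acetate-activating ACSS2 1113 in SIRT1 KD, 2059 in IGF2BP2 KD and 2714 in control (-0.89). HMGCS1, another sterol enzyme, and INSIG1, which holds back sterol regulation, were higher (0.53 and 0.70). Respiratory chain subunits were higher in 17 of 51 cases and lower in 5 (median 0.06). Those higher numbered 11 without SIRT1 KD replicate 3, and those lower 8 without IGF2BP2 KD replicate 2 and 3 without SIRT1 KD replicate 2, control replicate 3 or IGF2BP2 KD replicate 1 or 3. The complex I subunit NDUFA1 stood out among the lower ones and averaged 320.5 in SIRT1 KD, 779 in IGF2BP2 KD and 697 in control (-1.28).

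Lysosomal genes were called in both directions. Of 21 v-ATPase subunits 6 were higher and 5 lower (median 0.05), shares near the 25.5% and 24.9% of all genes. ATP6V1A and ATP6V1C1, of the cytosolic sector, were lower (-1.29 and -0.62), and ATP6V0A1, of the membrane sector, averaged 2709.9 in SIRT1 KD, 1051 in IGF2BP2 KD and 1161 in control (1.37). Of 27 lysosomal membrane proteins 11 were higher and 8 lower (median 0.07; 7 higher with all 12 libraries). LAMP1, the main lysosomal glycoprotein, was at 1842, 1653 and 1948 in SIRT1 KD, 4757, 4881 and 4773 in IGF2BP2 KD and 4493, 4353 and 4418 in control (-1.41, adjusted p = 9.2e-22), and the cholesterol exporter NPC1 averaged 11108 in SIRT1 KD, 5774 in IGF2BP2 KD and 8277 in control (0.94). Of 47 lysosomal hydrolases 17 were lower and 10 higher (median -0.01), and of 40 genes of autophagy and nutrient sensing 13 were higher and 11 lower (median 0.03). The sialidase NEU1 (0.97) and the nutrient-signalling GTPase RRAGD (0.98) were higher, and LAMTOR1, which anchors that signalling on the lysosome, was lower (-1.05).

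Growth regulators were mixed. Of 25 Hippo pathway genes and YAP targets 13 were higher and 7 lower (median 0.11). MOB1A, a co-activator of the LATS kinases, was at 1651, 1549 and 1802 in SIRT1 KD, 5682, 4803 and 5507 in IGF2BP2 KD and 5379, 5629.6 and 5469.9 in control (-1.67, adjusted p = 8.4e-21), and its paralog MOB1B was higher (0.57). Of 25 p53 targets 10 were higher and 9 lower (median 0.02), with the nuclease gene AEN at 1.34 and the p53 ligase gene MDM2 at -0.96. Of 7 sirtuins 3 were higher and 1, SIRT1, lower (median 0.05). The cytosolic SIRT2 and the nucleolar SIRT7 were higher (0.26 and 0.43), as was SIRT6 (0.25, adjusted p = 0.00223; 0.0681 with all 12 libraries). Of 20 genes of the IGF2BP family and the m6A machinery 4 were higher, IGF2BP2 itself among them, and 6 lower (median -0.03), shares near the 25.5% and 24.9% of all genes. METTL14, a subunit of the m6A methyltransferase, averaged 485 in SIRT1 KD, 798 in IGF2BP2 KD and 725 in control (-0.71), and the demethylase ALKBH5 was lower (-0.34).

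**Figure D3:**
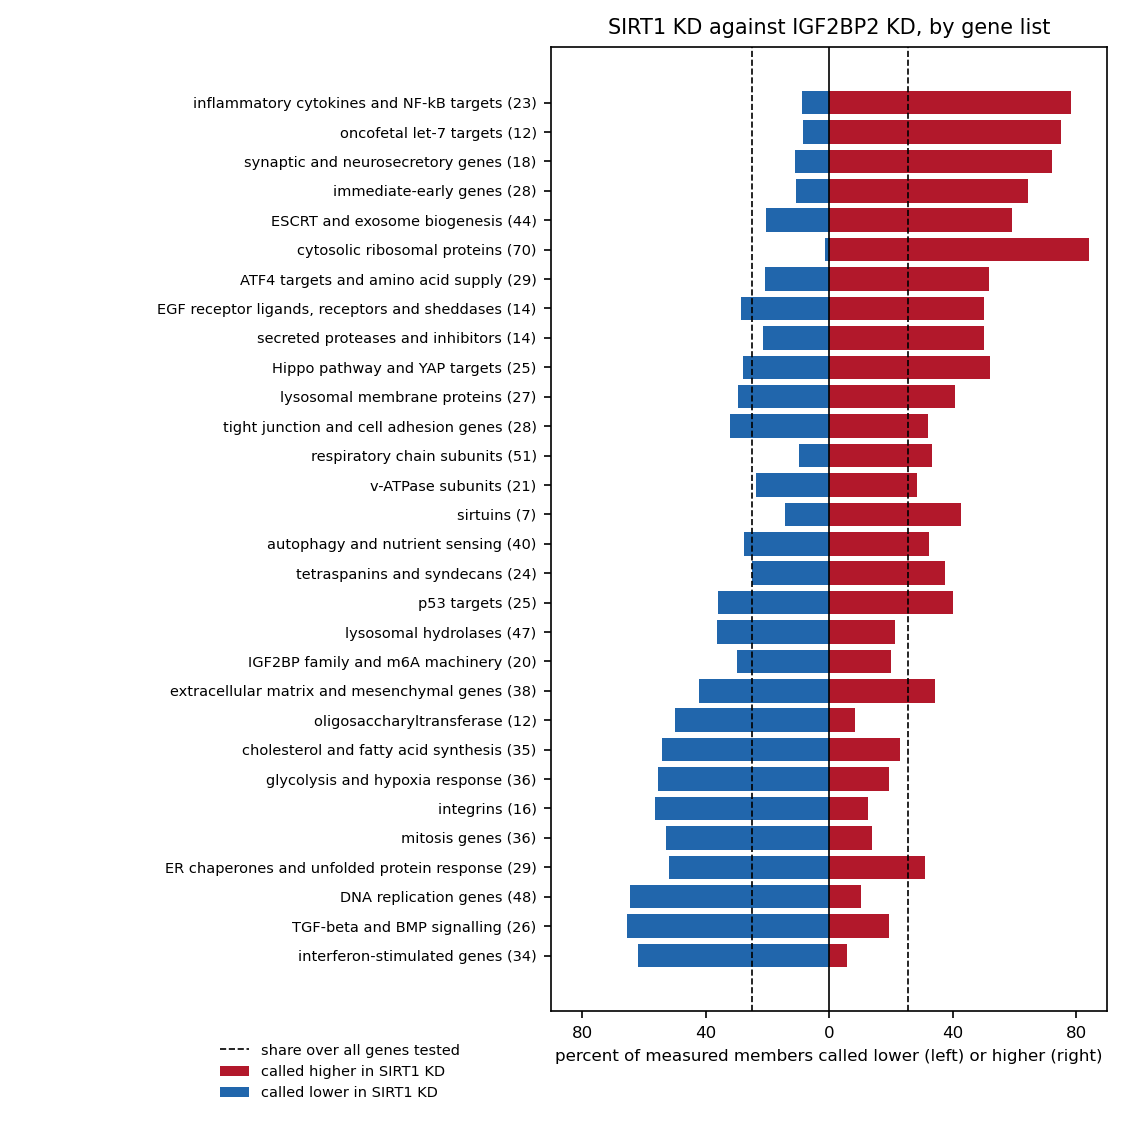
Percent of measured members called higher (right, red) or lower (left, blue) in SIRT1 KD than in IGF2BP2 KD for 30 gene lists, with the number measured in brackets; dashed lines mark the shares over all genes, 25.5% higher and 24.9% lower. Inflammatory, let-7, synaptic, immediate-early and ribosomal lists extend to the right and replication, TGF-beta and interferon lists to the left.

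Genes with certain words of 7 letters in their 3′ UTR leaned to 1 side of the comparison. The sequences behind them are printed because 10 of the 15 largest falls hold a word of 1 kind, beside 20.3% of the genes searched. The words were picked outside the comparison, as the 6 lowest of 16249 heptamers in double KD against control. CTCAGAT and TCAGATA were 5 and 6 in that order. A smaller cut would have left out 1 or both, and other cuts were not tested. Each heptamer scanned was found in at least 50 of 13045 genes (sense strand, longest 3′ UTR). Its value was the mean log2 fold change of genes with it minus that of genes without it. The 2 targets were among the genes scanned and were left out only of the shares and medians below. Double KD replicate 2 stood apart from its partners, with 15243152 reads in genes and 1.18% mitochondrial transcripts, and the choice without it was not tested. No SIRT1 KD or IGF2BP2 KD library entered that choice, but the double KD carries both hairpins, and words of this kind had been seen in earlier results of these data. Heptamers that overlap in 6 letters were joined, taking the lowest in double KD first. A joined word was to be kept only if it lies in the longest SIRT1 or IGF2BP2 transcript, and both joined words do. CTCAGAT overlaps with TCAGATA, and together they make CTCAGATA, which lies once in the SIRT1 transcript, in exon 8 of 9. AGCGGTA overlaps with GCGGTAA, this overlaps with CGGTAAT, and together they make AGCGGTAAT, which lies once in the IGF2BP2 transcript, in exon 16 of 16. GCGGTAT, the fourth of the 6, also overlaps with AGCGGTA in 6 letters. It is in neither joined word, because GCGGTAA, the second of the 6, was taken before it. Capitals mark the words, read along the transcript in GRCh38 with the GENCODE 29 annotation.
SIRT1 coding sequence, chr10:67912485-67912514, plus strand: catgaagtgcCTCAGATAttaattaataga
IGF2BP2 3′ UTR, chr3:185645053-185645082, minus strand: gggtgcctgcAGCGGTAATatattttagaa

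By the same measure CTCAGAT and TCAGATA were the lowest and the next lowest of all 16249 heptamers in the direct comparison. Their values were -0.24 (1745 genes) and -0.21 (1511 genes). GCGGTAA (0.34, 90 genes) and AGCGGTA (0.26, 139 genes) were the highest and the third highest, with IGF2BP2 itself among their genes. The second highest was CGGTCCG (0.27, 60 genes) and the third lowest CGCGCTA (-0.19, 62 genes), neither in a joined word. CGGTAAT ranked 21 from the top with 0.13. Against control CTCAGAT and TCAGATA ranked 1 and 2 from the lowest in SIRT1 KD and 8668 and 6836 in IGF2BP2 KD. GCGGTAA ranked 12610 from the lowest in SIRT1 KD and 1 in IGF2BP2 KD. The rank of AGCGGTA was 392 in SIRT1 KD (-0.04) and 2 in IGF2BP2 KD (-0.30). That of CGGTAAT was 258 in SIRT1 KD (-0.04) and 4 in IGF2BP2 KD (-0.17). AGCGGTA and CGGTAAT thus ranked low on both sides, with the larger shift in IGF2BP2 KD. Those ranks use the control libraries that also chose the words, and the direct comparison does not.

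Of 2645 genes with a heptamer of CTCAGATA (20.3% of those searched), 1230 (46.5%) were lower in SIRT1 KD than in IGF2BP2 KD, beside 23.7% of the genes without one. Their median log2 difference was -0.15, beside 0.05. The 377 genes with the joined word had a median of -0.30, and 59.2% of them were lower. In 4 equal bins of 3′ UTR length, from shortest to longest, the medians of genes with a heptamer were -0.25, -0.18, -0.17 and -0.12. Without one they were 0.04, 0.02, 0.07 and 0.07. A longer 3′ UTR holds more words, and the part of length in these differences was not tested. Read the other way, a heptamer of CTCAGATA stood in 33.3% of genes called lower, 14.4% of genes called higher, 15.7% of those not called and 39.1% of those lower by at least 2-fold. A match describes letters only, and 578 of the 2645 genes (21.9%) were called higher.

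Heptamers of AGCGGTAAT were rarer and pointed to the other side. Of 321 genes with one (2.46%), 145 (45.2%) were higher in SIRT1 KD than in IGF2BP2 KD, beside 30.5% of the genes without, and the medians were 0.14 and 0.01. They stood in 25 of 255 genes higher by at least 2-fold (9.80%) and in 1.87% of those lower by at least 2-fold. The 123 genes with heptamers of both words had a median of 0.02 in the direct comparison, and medians of -0.13 in SIRT1 KD and -0.12 in IGF2BP2 KD against control.

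Of the 15 largest falls 10 hold a heptamer of CTCAGATA, beside 20.3% of the genes searched. A heptamer of AGCGGTAAT is held by 0 of them, beside 2.46%, so few were to be found. Of the 15 largest rises 3 (GOLGA7B, TNFSF15 and SOD2) hold the first kind, near its share of all genes searched. The second kind is held by 2 (NAV3 and IGF2BP2 itself). The sites of 6 of the 10 falls, by size and outside SDC2, and that of ATP6V1A are shown as examples of the sites behind these counts.
RPN2 3′ UTR, chr20:37241486-37241515, plus strand: tacctggtgagCTCAGATAgtctctttctc
PBXIP1 3′ UTR, chr1:154944905-154944934, minus strand: tgtttggtgtcCTCAGATAtctttcacaca
PROM2 3′ UTR, chr2:95290275-95290304, plus strand: gatggacagacCTCAGATccattaaagtgt
TMEM123 3′ UTR, chr11:102397723-102397752, minus strand: tgtcgatattaCTCAGATttggggaaatga
SLC40A1 3′ UTR, chr2:189561507-189561536, minus strand: tgtactagaatTCAGATAtgtcagttttct
AMMECR1 3′ UTR, chrX:110197312-110197341, minus strand: ttgccatgattTCAGATAtgtttgtcatgg
ATP6V1A 3′ UTR, chr3:113811685-113811714, plus strand: gcgaacctatgCTCAGATAttcatcgtaag

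RPN2, PBXIP1 and ATP6V1A carry the whole joined word, and their direct differences were -2.63, -2.33 and -1.29. The sites of the other 4 hold 1 heptamer of it. ATOH8, the largest fall, holds none.

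Sites of AGCGGTAAT are shown for 6 genes that were higher in SIRT1 KD, chosen after their values were seen.
NAV3 3′ UTR, chr12:78211809-78211838, plus strand: aagaacactgaAGCGGTAAggtcactgtgg
SRI 3′ UTR, chr7:88206388-88206417, minus strand: ctctttgccttCGGTAATatgtataaactt
CLCN5 3′ UTR, chrX:50092944-50092973, plus strand: gtctgcaaaaaCGGTAATtttccaggtggc
PPARGC1B 3′ UTR, chr5:149848709-149848738, plus strand: acacccctggcAGCGGTAcagacaggtggt
ISCA1 3′ UTR, chr9:86264666-86264695, minus strand: ccaaaacctagAGCGGTAgttttatgtaaa
SETD7 3′ UTR, chr4:139510783-139510812, minus strand: tagtatctctaAGCGGTAActatggcaatt

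SRI, the calcium-binding protein sorcin, was at 2347, 2174 and 2342 in SIRT1 KD, 750.2, 673 and 725 in IGF2BP2 KD and 2083, 2249.8 and 2188 in control (1.68, adjusted p = 3.7e-23). SIRT1 KD overlapped control and IGF2BP2 KD lay below both. SETD7, a lysine methyltransferase, averaged 4564 in SIRT1 KD, 1734 in IGF2BP2 KD and 3641 in control (1.40), and CLCN5, a chloride-proton exchanger of endosomes, 284 in SIRT1 KD, 90.4 in IGF2BP2 KD and 223 in control (1.65). The coactivator gene PPARGC1B (1.55) and ISCA1, which builds iron-sulfur clusters (1.42), were called higher in SIRT1 KD and lower in IGF2BP2 KD against control. CLCN5 and PPARGC1B also hold a heptamer of CTCAGATA, and both were nevertheless higher in SIRT1 KD than in control (0.35 and 1.07).

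Among only the 8 largest shared changes 5 of 5 falls hold a heptamer of CTCAGATA, beside 20.3% of the genes searched. Of these falls 3 (ICMT, LOX and CYTH3) hold heptamers of both words, beside 0.94%, and 0 of 3 rises hold any. The shares over all genes take no account of 3′ UTR length, and its part was not tested. In the shortest of the 4 length bins 116 genes hold a heptamer of CTCAGATA and 3145 do not. In the longest bin 1485 do and 1778 do not. The 3′ UTRs searched in ICMT, LOX and CYTH3 are 3887, 3548 and 3168 bases long. The genes and the words were both chosen by their values against the same control libraries. The sites of ICMT, LOX and CYTH3, also chosen after the values were seen, show both words in the same 3′ UTR.
ICMT 3′ UTR, chr1:6223618-6223647, minus strand: tgtttttaataCTCAGATgtgggagcgaca
ICMT 3′ UTR, chr1:6224648-6224677, minus strand: cccttcttatcAGCGGTAAaaatgcattta
LOX 3′ UTR, chr5:122066161-122066190, minus strand: caatacatgtaCTCAGATAgttacatccct
LOX 3′ UTR, chr5:122065150-122065179, minus strand: ctggcggatatAGCGGTAcatatgatcctt
CYTH3 3′ UTR, chr7:6164414-6164443, minus strand: tcagaatttttCTCAGATAtataggattat
CYTH3 3′ UTR, chr7:6161970-6161999, minus strand: tatttctatttGCGGTAAatatagtaatat

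ICMT was at 652, 583 and 602 in SIRT1 KD, 667, 613 and 708 in IGF2BP2 KD and 1403, 1632 and 1570.0 in control, and LOX at 1144, 1065 and 1152 in SIRT1 KD, 1261, 1271 and 1315 in IGF2BP2 KD and 2686, 2519 and 2644 in control. Every library of both knockdowns lay below control. Whether the hairpins act on these transcripts through the words was not tested.

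**Figure D4:**
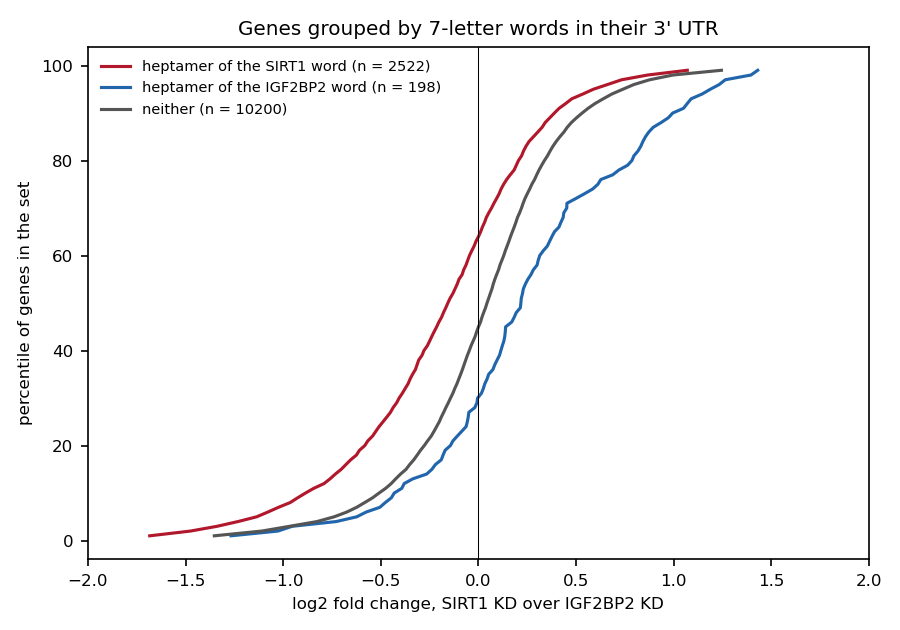
Cumulative percentiles of the log2 fold change of SIRT1 KD over IGF2BP2 KD for genes whose 3′ UTR holds only heptamers of CTCAGATA (2522 genes), only heptamers of AGCGGTAAT (198 genes) or neither (10200 genes). The curve for CTCAGATA lies left of the curve for neither, and the curve for AGCGGTAAT lies right of it over most of its length.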

How the data were processed

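MDA-MB-231 RNA sequencing libraries of SIRT1 KD, IGF2BP2 KD and control (3 each) were compared. Per the submitters' processing notes, CASAVA, STAR, DESeq2 and GRCh38.p13 were used. Versions, annotation and strand setting are not stated there, so antisense and overlapping genes may share reads. The authors deposited a signal table of counts divided by size factors, for 60649 genes, and log2 ratios per library for 15209 genes. Whole reads were recovered from the signal table for 100% of values within 0.001, giving 19522606 to 22509142 reads per library. A further 12 columns without names were not used. Of the IDs, 60463 had a symbol and 58381 were in GENCODE 29. List symbols matched in 972 of 973 cases.

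Genes kept by filterByExpr (edgeR 4.0.16, minimum count 10) were tested in limma 3.58.1 (R 4.3.3, trend and robust) on log2(normalised count + 1), 1 mean per group, with Benjamini-Hochberg adjustment over 17343 genes and calls at adjusted p under 0.05. Adjusted p-values and 95% intervals come from this fit unless an alternative is named with them, and log2 differences understate changes of low genes. The double KD values that chose the words come from the fit of all 12 libraries. The code was tested on simulated data. Named were the targets and ATP6V1A, the 15 largest rises and falls and 8 opposite and 8 shared changes among protein-coding genes at 5 CPM or more, and up to 5 members per list by adjusted p. Some genes that this rule names are not reported here. Members and lists were chosen with earlier results of these data known. Alternatives were edgeR and DESeq2 1.42.0 on the recovered reads, TMM scaling, other pseudocounts and filters, all 12 libraries, the 2 groups alone, a replicate block, the deposited ratios and each library left out.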

Additional observations from a re-analysis of the deposited data

How the results depend on the processing

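The number of genes called between SIRT1 KD and IGF2BP2 KD, 8753, was 6777 with all 12 libraries, 8429 with the 2 groups alone, 8820 in edgeR, 7773 in DESeq2, 8806 with TMM scaling, 8168 without a filter, 7233 at a mean of at least 100 normalised counts and 7076 in the deposited ratios. Leaving out 1 library gave 7941 to 8711. The count at 2-fold, 1003, was 621 with a pseudocount of 8 and 438 at a mean of at least 100, where fewer low genes are tested. IGF2BP2 KD against control, 5326, gave 2857 with all 12 libraries and 3503 in the deposited ratios; the cause was not tested. With the replicate block 8784 genes were called. Same-numbered libraries of the 2 knockdowns correlated at -0.0843, 0.0775 and 0.0510 in their deviations from group means, and libraries of other numbers at -0.129 to 0.0861. With 3 libraries per group these values cannot settle whether libraries were paired, and the labels do not say. Of 3537 values of named genes in SIRT1 KD against IGF2BP2 KD under alternatives, 0 reversed, 8 in 3 genes lost their call (BTG2, DDOST and SIRT6) and 2 gained one (ICMT and JDP2). DDOST was at an adjusted p of 0.0594 in the deposited ratios. With the union of annotated 3′ UTRs 35.3% of genes called lower and 16.0% of those called higher held a heptamer of CTCAGATA. Among heptamers in at least 200 genes, a minimum chosen after seeing the data, CTCAGAT and TCAGATA ranked 1 and 2 of 14532 in double KD against control. Depth limits genes with few reads most, and 1 hairpin per target limits every result.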

Other observations

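Of 13160 protein-coding genes 4040 were higher and 3726 lower in SIRT1 KD than in IGF2BP2 KD, and of 3935 other genes in GENCODE 29, 371 were higher and 559 lower. The medians of the log2 difference were 0.02 and -0.05. The difference in shares was not tested. Further words that resemble the IGF2BP2 word, GCGGTAT and GCGGTAC, ranked 4 and 8 from the highest in the direct comparison (0.22 and 0.17). In IGF2BP2 KD against control they ranked 3 and 6 from the lowest. CGGTCCG (60 genes) and CCGACGA (61 genes), not part of that word, ranked 2 and 5 from the highest in the direct comparison (0.27 and 0.19).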
